A study of Mus musculus with 19 samples.

Results

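The collagen genes were taken as every gene whose symbol was Col, a number, the letter a and a number, and that had an expected count of at least 10 in at least 5 of the 19 libraries. Expected counts are RSEM's estimates of the reads from a gene. This rule used the level of a gene in all libraries together and not its difference between groups. It kept 23 of the 44 collagen symbols among 53558 listed genes: 5 of 11 fibrillar genes, all 6 genes of the type IV chains of basement membranes, and 12 of 27 genes of other types. Just inside the rule, *Col10a1* reached 10 counts in 8 libraries and *Col7a1* in 10, whereas *Col20a1*, just outside it, did so in 3, and *Col17a1* and *Col27a1* in 2.

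Collagens are the main structural proteins of the extracellular matrix. Fibrillar collagens form the cables of connective tissue and in the lung are made mostly by fibroblasts, while type IV collagen forms the sheet-like network of the basement membrane on which epithelial and endothelial cells sit. Of the type IV chains, those of *Col4a1* and *Col4a2* make the network of nearly all basement membranes, and those of *Col4a3*, *Col4a4* and *Col4a5* make a second kind, found in the alveolus and in the kidney glomerulus. The other types include the beaded filaments of type VI, molecules that sit on the surface of fibrils, anchoring fibrils and membrane-spanning collagens.

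The RNA came from neoplastic cells sorted from lung tumors of *KT;H11*LSL-Cas9 mice, which carry Cre-activated alleles, those of tdTomato and Cas9 among them. Tumors had grown for 17 weeks after a lentiviral vector with Cre and sgRNAs was given into the trachea. The vector carried control sgRNAs (sgNeo1/sgNT1/sgNeo2, called sgInert, 7 libraries), sgRNAs against the C/EBP transcription factor genes *Cebpa*, *Cebpb* and *Cebpd* (sgCebpa/b/d, 7 libraries) or an sgRNA against *Lkb1*, whose mouse gene symbol is *Stk11* (sgLkb1, 5 libraries), so that alleles were changed only in infected cells and the controls had the same genotype. Cells stained for CD45, CD31, F4/80 or Ter119 were removed in the sort, and no fibroblast antigen is named among these. For other RNA sequencing of the study a gate on tdTomato, which marks cells with active Cre, is described, and for these libraries it is not stated in the sources used here. The mice were of mixed sexes, and their age at infection is given only as a range for all of the study's mice.

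Library titles fall into series. Of the sgInert titles, 4 name an animal by ZR and a number (ZR-numbered) and 3 by MT and a number (MT-numbered). In sgCebpa/b/d, 4 are MT-numbered and 3 have no animal number (unnumbered), and in sgLkb1 there are 3 and 2 of these. By animal number, sgInert replicates 2 and 5 share an animal, as do sgLkb1 replicates 2 and 3 and sgCebpa/b/d replicates 1, 3 and 4. Each MT set comes from 2 animal numbers, so that n counts libraries. All 4 MT-numbered sgCebpa/b/d libraries were from females and all 3 unnumbered ones from males, all 5 sgLkb1 libraries were from females, and 3 of 7 sgInert libraries were. What a title series stands for is not described, and within sgCebpa/b/d it cannot be told apart from sex.

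Counts per library summed to 2760722 to 9944131, with a median of 6028918. *Stk11* had 17.5 to 27.8 TPM (a transcript level per gene length, scaled to the same sum in every library) in sgInert and 7.55 to 15.3 TPM in sgLkb1, and fell by 1.24 ± 0.17 (SE) on the log2 scale there (adjusted p = 0.000107). *Cebpa* transcripts were not lower in the sgCebpa/b/d libraries but had a higher mean, 63.9 TPM (43.9 to 86.1) against 38.0 TPM (26.7 to 46.4) in sgInert. *Cebpb* had 14.6 to 19.3 TPM in unnumbered and 4.19 to 5.21 TPM in MT-numbered sgCebpa/b/d, against 2.97 to 6.23 TPM in sgInert, and *Cebpd* had 45.7 to 57.5 and 21.04 to 30.7 TPM, against 15.3 to 49.1 TPM. A transcript level does not show whether an edited gene still makes protein. As the label of neoplastic lung epithelium has it, the 5 epithelial marker genes summed to 411 to 1056 TPM in the libraries, and the 10 markers of alveolar type II cells, the surfactant-making cells of the alveolus, to 32653 to 70051 TPM. Among markers of other cells, 12 fibroblast genes summed to 5.29 to 131 TPM, 8 endothelial genes to 12.1 to 163 TPM and 7 genes of pericytes or smooth muscle to 1.68 to 22.2 TPM. The 8 immune genes summed to 483 to 21866 TPM, nearly all of it *Lyz2* (lysozyme, which alveolar type II cells also make), with 13254 to 21847 TPM in sgInert, 454 to 3342 TPM in sgCebpa/b/d and 3881 to 7721 TPM in sgLkb1. *Lyz2* was called lower in both targeted groups (log2 fold changes of -3.52 ± 0.32 and -1.94 ± 0.34, adjusted p = 2.51e-07 and 0.00104), and the other 7 immune genes summed to 5.01 to 44.5 TPM. In such bulk samples, fewer cells of a type and less RNA per cell cannot be told apart.

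Most collagen RNA in these cells encoded basement membrane. On the TPM scale, type IV chains made up 60.0% to 84.1% of the summed level of the 23 genes in sgInert libraries, 67.0% to 79.9% in those of sgCebpa/b/d and 59.7% to 73.2% in those of sgLkb1. The summed level of the 6 type IV genes was 133 to 156 TPM in sgInert (median 144, n = 7), 190 to 241 TPM in sgCebpa/b/d (median 221, n = 7) and 177, 199, 223, 226 and 232 TPM in the 5 sgLkb1 libraries. Every library of both targeted groups lay above every sgInert library in this sum. On the log2 TPM scales tried, the median of all genes was itself 0.18 to 0.21 higher in sgLkb1 than in sgInert (0.03 to 0.04 in sgCebpa/b/d). Fibrillar collagens made up 1.10% to 12.5% of the collagen level in sgInert, 4.84% to 17.6% for sgCebpa/b/d and 10.1% to 16.3% for sgLkb1.

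**Figure D1:**
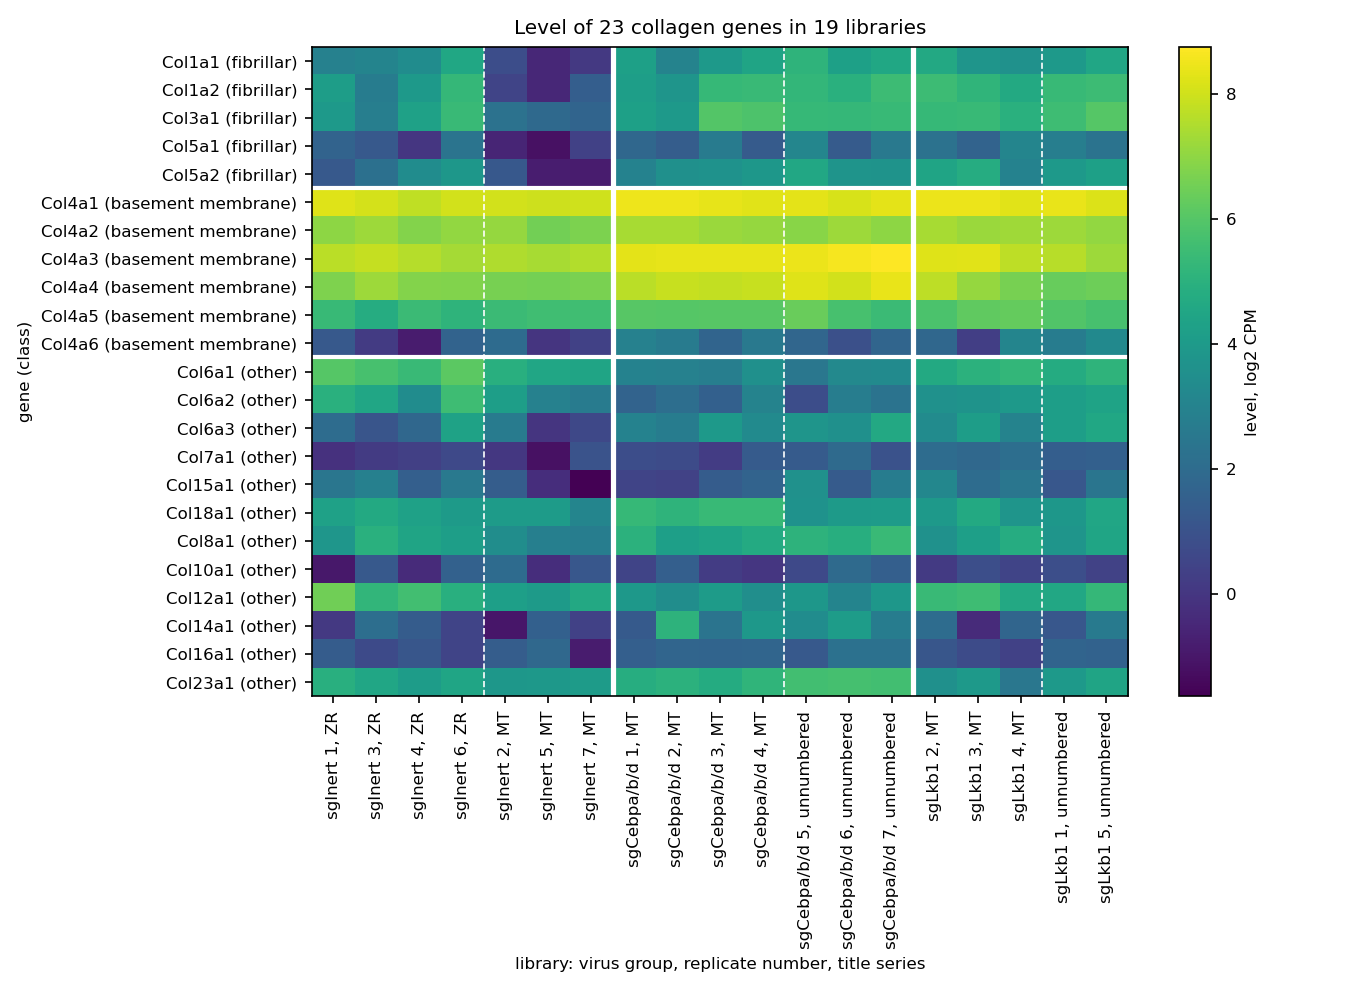
Level of each of the 23 collagen genes (rows, with their class) in each of the 19 libraries (columns, by virus group, replicate number and title series), as log2 CPM (counts per library scaled to a common total) in color. The type IV genes *Col4a1* to *Col4a4* are the brightest rows in all libraries, the fibrillar rows are mostly darkest in the 3 MT-numbered sgInert libraries, and *Col6a1* and *Col6a2* are darker in sgCebpa/b/d than in sgInert.

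To ask which collagen genes differed when the C/EBP genes or *Lkb1* were targeted, each targeted group was compared with sgInert. Calls needed both an adjusted p under 0.05 (edgeR's quasi-likelihood test, Benjamini-Hochberg over 13986 genes) and a log2 fold change past 1 in either direction. All 23 collagen genes passed the filter on low counts. In the sgCebpa/b/d libraries, calls were made for 4 collagen genes that were higher (*Col3a1*, *Col4a4*, *Col14a1* and *Col23a1*) and 3 that were lower (*Col6a1*, *Col6a2* and *Col12a1*), against 2.65% of all tested genes called higher and 2.00% called lower. In sgLkb1, 2 were called higher (*Col3a1* and *Col7a1*) and 0 lower, against 1.87% and 1.14% of all genes. The median log2 fold change of the 23 genes was 0.91 in sgCebpa/b/d and 0.34 in sgLkb1, whereas that of all genes was 0.02 and -0.01. By the adjusted p alone, 7 collagen genes were higher and 3 lower in sgCebpa/b/d (4.73% and 5.36% of all genes), and 4 were higher and 0 lower in sgLkb1 (2.81% and 2.97%). Both comparisons share the sgInert libraries. Without sgInert replicate 6, the calls became 12 and 8, and among MT-numbered libraries alone they were 11 and 6, with 4 fibrillar genes (*Col1a1*, *Col1a2*, *Col5a1* and *Col5a2*) gained each time.

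**Figure D2:**
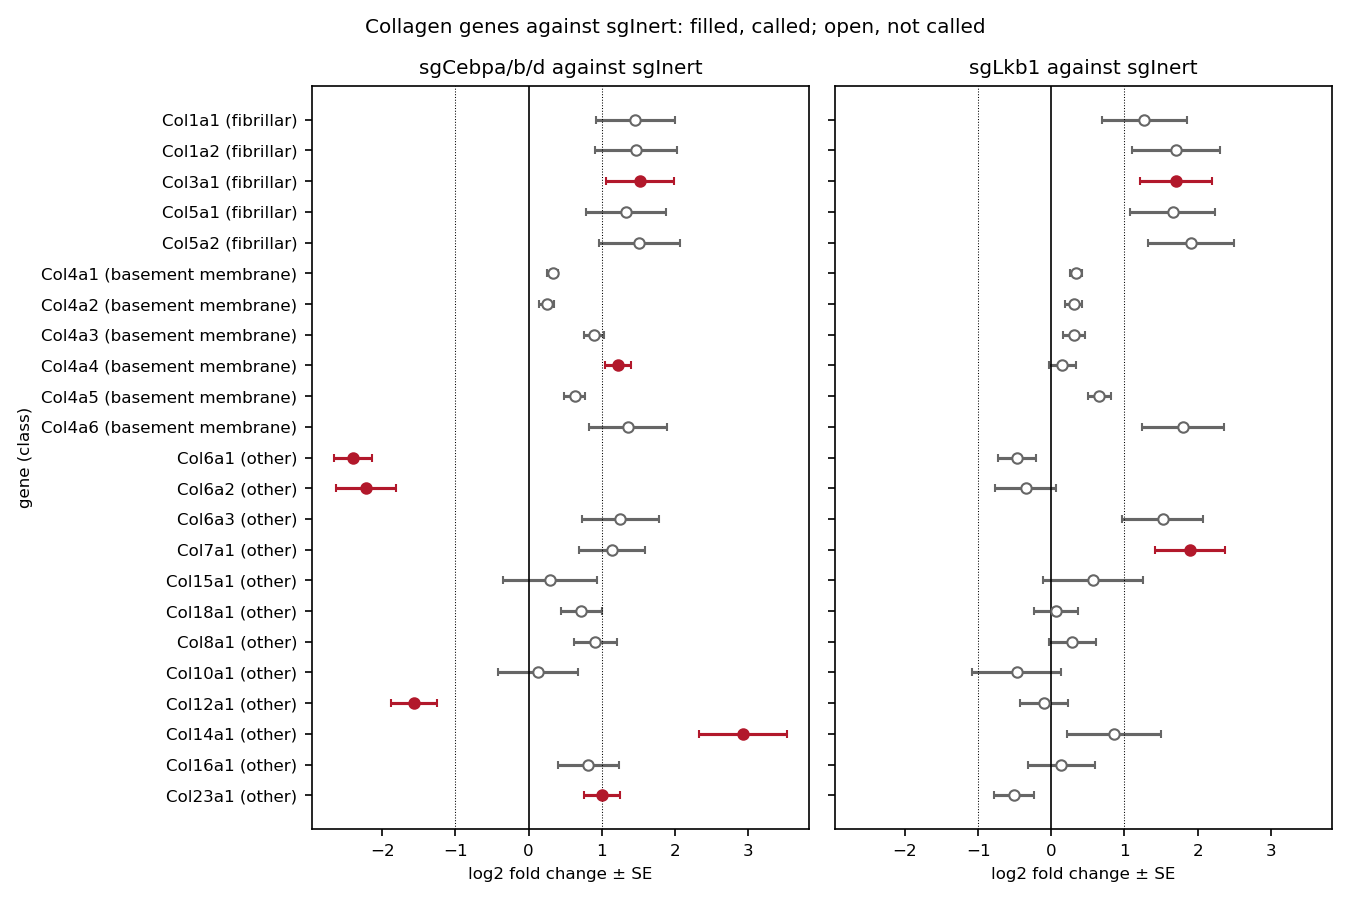
Log2 fold change of each collagen gene (rows, with class) in sgCebpa/b/d (left) and sgLkb1 (right) against sgInert, with bars of 1 SE from edgeR. Filled points are called and open points are not, dotted lines mark a log2 fold change of 1 in either direction, and *Col6a1*, *Col6a2* and *Col12a1* are the called points left of 0.

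Fibrillar collagens. Types I, III and V build the collagen fibrils of connective tissue, with *Col1a1* and *Col1a2* encoding the chains of type I, *Col3a1* that of type III and *Col5a1* and *Col5a2* chains of type V, which set fibril thickness. All 5 fitted log2 fold changes against sgInert were above 0 in both targeted groups, with medians of 1.47 and 1.70, yet *Col3a1* alone was called. *Col3a1* had 1.70 to 5.41 log2 CPM in sgInert (median 2.80), 3.95 to 5.96 log2 CPM in sgCebpa/b/d (median 5.33) and 4.96, 5.33, 5.35, 5.52 and 6.02 log2 CPM in sgLkb1. All libraries of both targeted groups but 2 lay above every sgInert library other than replicate 6, whose level was in their midst. It rose by 1.52 ± 0.47 on the log2 scale in sgCebpa/b/d (adjusted p = 0.0401) and by 1.70 ± 0.50 in sgLkb1 (adjusted p = 0.0435). These calls were close to the threshold and were lost in 10 and 12 of the 19 fits that left out 1 library, with adjusted p of up to 0.078 and 0.121. With the libraries of each animal summed, *Col3a1* was called in neither comparison.

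The spread of the fibrillar genes in sgInert followed the title series. *Col1a1* had 39, 30, 44 and 127 counts in the ZR-numbered sgInert libraries (replicates 1, 3, 4 and 6) and 8, 3 and 3 counts in the MT-numbered ones (replicates 2, 5 and 7). *Col1a2* had 91, 24, 67 and 213 counts in the former and 6, 3 and 10 in the latter. The MT-numbered libraries had at most 10 counts of either gene, although the 8 counts of replicate 2 gave the same 1.70 TPM of *Col1a1* as replicate 3, and replicate 6 had the most counts of the group in all 5 fibrillar genes.

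Of the 5 fibrillar genes, 4 were called lower in the MT-numbered than in the ZR-numbered sgInert libraries. The log2 fold changes were -3.85 ± 0.58 for *Col1a1* (adjusted p = 0.00153), -4.07 ± 0.64 for *Col1a2* (adjusted p = 0.0019), -2.52 ± 0.55 for *Col3a1* (adjusted p = 0.0217) and -3.22 ± 0.72 for *Col5a2* (adjusted p = 0.0238). *Col5a1* had 15, 8, 3 and 27 counts against 2, 1 and 4, which was not called (adjusted p = 0.106). In this comparison 7 of the 23 collagen genes were called lower and 0 higher, against 0.829% and 0.400% of all genes. Without sgInert replicate 5 or without replicate 7 the calls fell to 2, which were *Col1a1* and *Col1a2*. Replicates 2 and 5 came from the same animal, and libraries of an animal were not summed in this comparison.

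The summed level of the 5 fibrillar genes was 6.12 to 31.0 TPM in ZR-numbered sgInert, and 1.80, 1.93 and 3.42 TPM in MT-numbered sgInert. It was 14.6 to 55.8 TPM in the MT-numbered sgCebpa/b/d libraries, and 30.7, 41.2 and 41.8 TPM in the MT-numbered sgLkb1 libraries. Among MT-numbered libraries alone, all 5 fibrillar genes were called higher in both targeted groups, *Col1a1* with a log2 fold change of 4.21 in sgCebpa/b/d and 4.30 in sgLkb1, against sgInert libraries from 2 animals. Between unnumbered and MT-numbered libraries, 0 fibrillar genes were called in either targeted group, with log2 fold changes of 0.05 to 0.71 for sgCebpa/b/d and -0.11 to 0.57 for sgLkb1.

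The summed level of fibroblast markers moved with these genes. The 12 markers summed to 24.8 to 50.1 TPM in ZR-numbered sgInert, 5.29, 10.8 and 18.8 TPM in MT-numbered sgInert, 29.3 to 108 TPM in sgCebpa/b/d, and 29.8 to 131 TPM in sgLkb1. Of the 8 that could be tested, *Dcn* (decorin, which binds collagen fibrils) was called higher in both targeted groups, by 2.88 ± 0.55 and 2.84 ± 0.58 on the log2 scale, and up to 5 of the 12 markers were at 0 in a library. The other 7 were not called, and the median log2 fold change of the 8 was 0.21 in sgCebpa/b/d, where *Inmt* (-1.13 ± 0.73) and *Dpt* (-0.09 ± 0.81) were below 0, and 0.91 in sgLkb1. Between MT-numbered and ZR-numbered sgInert libraries the median was -1.92, with 0 of 8 called. *Pdgfrb*, the receptor that marks fibroblasts and pericytes, was not called (log2 fold changes of 1.36 and 1.28). In sgLkb1, summed markers of other cells were also higher. The 7 genes of pericytes or smooth muscle had 8.54 to 22.2 TPM against 1.68 to 7.62 TPM in sgInert (*Rgs5* called, 3.32 ± 0.66, 1 of 4 tested). The 4 mesothelial genes had 5.02 to 14.4 TPM against 0 to 2.21 TPM (*Msln* called, 3.17 ± 0.66, the 1 tested). Of these 4 genes, 0 to 3 were at 0 counts in an sgLkb1 library, with 3 at 0 in replicates 3 and 4. The part of RNA from these cells in the fibrillar results was not tested.

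**Figure D3:**
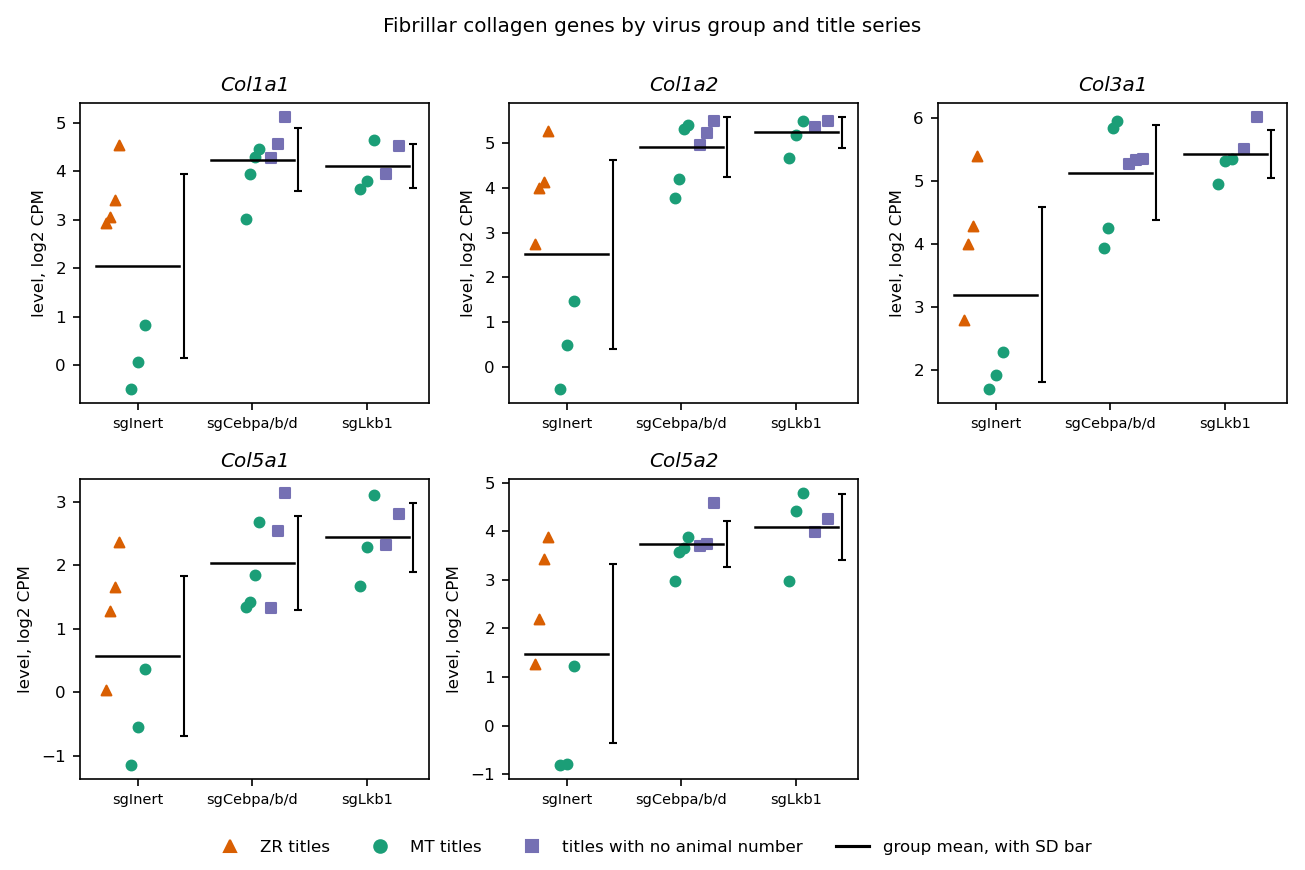
Level of the 5 fibrillar collagen genes (log2 CPM, vertical axis) in each library by virus group, with symbols for the title series, lines at the group mean and bars of 1 SD. The MT-numbered sgInert libraries sit at or near the bottom of each panel, and sgInert replicate 6, which is ZR-numbered, sits among the libraries of the targeted groups.

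Basement membrane collagens. The type IV genes lie in head-to-head pairs in the mouse genome (GRCm38), each pair transcribed outwards from a shared start region. *Col4a3* (chr1:82586921-82722059, plus strand) and *Col4a4* (chr1:82448423-82586849, minus strand) have 71 bases between their annotated starts. *Col4a1* (chr8:11198423-11312826, minus strand) and *Col4a2* (chr8:11312805-11449287, plus strand) overlap by 22 bases at their 5′ ends, and *Col4a5* and *Col4a6* on chromosome X lie 1308 bases apart. The stretches between or shared by the paired starts are shown because sgCebpa/b/d lay wholly above sgInert for both *Col4a3* and *Col4a4*, and the *Col4a1* and *Col4a2* pair is given for comparison. They were taken from RefSeq promoter windows of GRCm38.p6, with capitals marking a GC box (GGGCGG on either strand), the letters TTGCNNAA of a C/EBP site, a CCAAT box (CCAAT) or a TATA box (TATAAA).
Col4a4 to Col4a3, minus strand of chr1:82586850-82586920: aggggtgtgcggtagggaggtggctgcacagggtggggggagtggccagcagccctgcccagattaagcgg
Col4a1 and Col4a2 overlap, plus strand of chr8:11312805-11312826: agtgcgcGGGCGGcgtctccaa
The bases between *Col4a4* and *Col4a3* were 69.0% G or C and held none of these letters, while the overlap of *Col4a1* and *Col4a2* held a GC box. Over all 32851 RefSeq windows, a GC box stood in 35.7%.

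*Col4a4* rose in sgCebpa/b/d, and *Col4a3*, which shares its start region, passed the adjusted p there without reaching the minimum fold. *Col4a4* had 11.9 to 18.5 TPM in sgInert (median 13.99) and 28.1 to 36.2 TPM in sgCebpa/b/d (median 33.3). In sgLkb1 its libraries had 30.5, 20.1 and 15.6 TPM where MT-numbered and 12.3 and 12.7 TPM where unnumbered, so that 1 library reached the range of sgCebpa/b/d and 2 lay at the low end of sgInert.

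The log2 fold change of *Col4a4* was 1.22 ± 0.18 in sgCebpa/b/d (2.33-fold, adjusted p = 7.46e-05) and 0.15 ± 0.19 in sgLkb1 (adjusted p = 0.746). It was also called higher in sgCebpa/b/d than in sgLkb1, by 1.07 ± 0.20 (adjusted p = 0.00145). *Col4a3* had 26.9 to 36.7 TPM in sgInert (median 30.1), 53.7 to 68.1 TPM in sgCebpa/b/d (median 56.7) and 56.0, 56.3, 41.8, 36.3 and 26.1 TPM in sgLkb1. Its log2 fold change in sgCebpa/b/d, 0.90 ± 0.14 (adjusted p = 0.000131), was 1.86-fold. For these 2 genes every sgCebpa/b/d library was above every sgInert library, which held for 1.28% of all genes.

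Within sgLkb1, the unnumbered libraries were below the MT-numbered ones for both genes (log2 fold changes of -0.67 ± 0.17 and -0.82 ± 0.22, neither called, adjusted p = 0.199), and within sgCebpa/b/d they were above them (0.26 ± 0.14 and 0.41 ± 0.17, adjusted p = 0.296 and 0.151). The shares of all genes whose libraries separated between title series in these ways were not counted. The interaction of title series and virus did not pass for *Col4a4* (1.23 ± 0.28, adjusted p = 0.0747) or *Col4a3* (0.92 ± 0.22, adjusted p = 0.116). Together *Col4a3* and *Col4a4* made up 31.5% ± 3.60 (SD, n = 7) of type IV transcripts in sgInert, 42.3% ± 6.44 (n = 7) in sgCebpa/b/d and 28.6% ± 6.58 (n = 5) in sgLkb1. The call of *Col4a4* against sgInert was made in all 19 fits that left out 1 library and in all 12 other alternatives tried. Against sgLkb1 it was lost among MT-numbered libraries, where the log2 fold change was 0.60 (adjusted p = 0.0608). The call against sgLkb1 was also lost with sex as a covariate, with the unnumbered libraries left out and in both fits on log2 TPM. Of the 19 fits that left out 1 library, 4 lost it too (sgCebpa/b/d replicate 7, and sgLkb1 replicates 1, 4 and 5).

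The summed level of markers of alveolar type I cells, the flat cells of gas exchange, was higher in both targeted groups. *Col4a3* and *Col4a4* passed the adjusted p against sgInert in sgCebpa/b/d alone. The 8 type I markers summed to 492 to 761 TPM in sgInert, 929 to 1762 TPM in sgCebpa/b/d and 868 to 1108 TPM in sgLkb1, with none at 0 in any library. Within sgCebpa/b/d the sum was 929 to 1310 TPM in MT-numbered and 1442 to 1762 TPM in unnumbered libraries. Within sgLkb1 it was 1003 to 1108 TPM in MT-numbered and 868 to 934 TPM in unnumbered libraries. In both targeted groups this was the direction in which *Col4a3* and *Col4a4* differed between the title series. Of the 8, *Hopx*, *Pdpn* and *Akap5* were called higher in sgCebpa/b/d, *Pdpn* by 2.52 ± 0.39 on the log2 scale, against 2.65% of all genes. In sgLkb1 0 were called higher, against 1.87% of all genes. There 6 of the 8 markers were above 0, with a median log2 fold change of 0.41, and 1 passed the adjusted p. Their part in the *Col4a3* and *Col4a4* result was not tested.

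For *Col4a1* and *Col4a5*, the log2 fold changes against sgInert were close to each other in both targeted groups. *Col4a1*, the most abundant collagen gene, had a mean of 58.1 ± 6.27 TPM in sgInert (SD, n = 7), 73.5 ± 12.95 TPM in sgCebpa/b/d and 85.4 ± 2.34 TPM in sgLkb1 (n = 5), with log2 fold changes of 0.33 ± 0.08 (adjusted p = 0.00834) and 0.34 ± 0.09 (adjusted p = 0.0196). *Col4a5*, on chromosome X, had 9.51 to 18.3 TPM in sgInert, 12.01 to 29.1 TPM in the sgCebpa/b/d libraries and 20.8 to 36.2 TPM in sgLkb1, so that the sgLkb1 libraries all lay above those of sgInert (2.15% of all genes did so). Its log2 fold changes were 0.63 ± 0.14 (adjusted p = 0.00579) and 0.66 ± 0.15 (adjusted p = 0.0124), and with sex as a covariate they were 0.61 and 0.55 with adjusted p = 0.00573 and 0.0452.

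*Col4a2* had 24.7 ± 3.67, 29.9 ± 5.59 and 35.3 ± 3.61 TPM in sgInert, sgCebpa/b/d and sgLkb1 and did not pass (adjusted p = 0.151 and 0.131). *Col4a6* was sparse, with 1 to 20 counts in sgInert, 9 to 60 for sgCebpa/b/d and 6 to 84 for sgLkb1, and its log2 fold changes of 1.36 ± 0.53 and 1.80 ± 0.56 did not pass (adjusted p = 0.117 and 0.0643). Between title series, 0 type IV genes were called within any group. The 8 endothelial markers, from cells that also make basement membrane, summed to 12.1 to 29.9 TPM in sgInert, 22.9 to 44.5 TPM in MT-numbered and 119 to 163 TPM in unnumbered sgCebpa/b/d, and 47.9 to 122 TPM in sgLkb1. Of these markers, 5 were called higher in sgCebpa/b/d and 1 in sgLkb1, against 2.65% and 1.87% of all genes. Their median log2 fold changes were 2.08 and 1.83. *Col4a1* had 74.3 to 92.8 TPM in the MT-numbered and 53.6 to 75.3 TPM in the unnumbered sgCebpa/b/d libraries. In counts this difference was not called (log2 fold change -0.13 ± 0.11, adjusted p = 0.538). Of the 6 type IV genes, 2 were above 0 in this contrast, *Col4a3* (0.26) and *Col4a4* (0.41), and the rest were below. The part of endothelial RNA in the type IV levels was not tested.

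**Figure D4:**
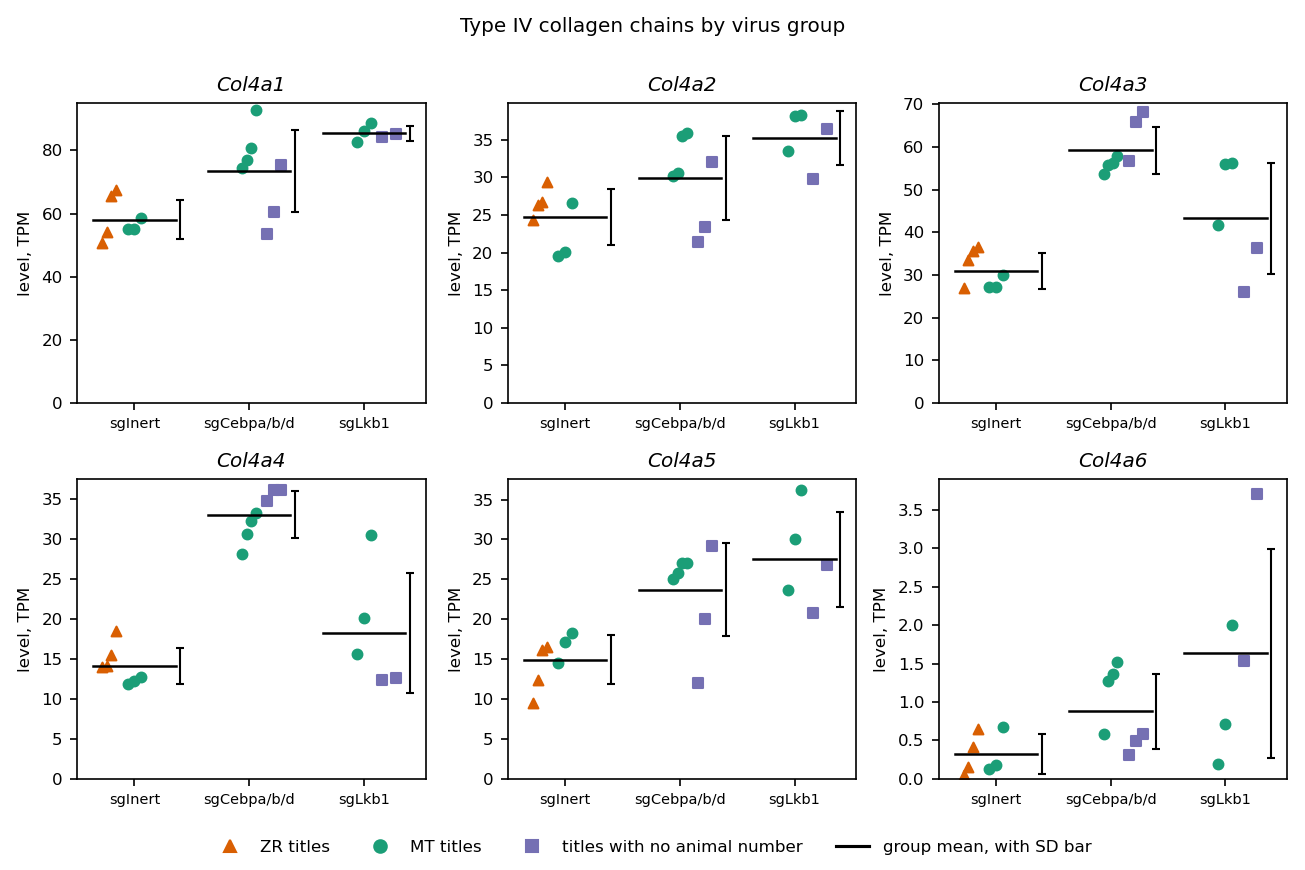
Level of the 6 type IV collagen genes (TPM, vertical axis from 0) in each library by virus group, with symbols for the title series, lines at the group mean and bars of 1 SD. All sgCebpa/b/d libraries lie above all sgInert libraries for *Col4a3* and *Col4a4*, and the sgLkb1 libraries of these genes spread from the sgInert range to the sgCebpa/b/d range.

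Type VI collagen. This collagen forms beaded filaments next to basement membranes and is assembled from the chains of *Col6a1*, *Col6a2* and a further chain such as that of *Col6a3*. *Col6a1* (chr10:76708792-76726168) and *Col6a2* (chr10:76595762-76623630) lie on the minus strand, 85161 bases apart, whereas *Col6a3* lies on chromosome 1 (chr1:90765923-90843971). The 120 bases upstream of both starts, from the same RefSeq windows, are shown since these were the collagen genes that fell most, with capitals for the same letters.
Col6a1 upstream, minus strand of chr10:76726169-76726288: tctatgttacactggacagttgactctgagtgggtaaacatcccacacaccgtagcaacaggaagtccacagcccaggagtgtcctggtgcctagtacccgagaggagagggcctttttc
Col6a2 upstream, minus strand of chr10:76623631-76623750: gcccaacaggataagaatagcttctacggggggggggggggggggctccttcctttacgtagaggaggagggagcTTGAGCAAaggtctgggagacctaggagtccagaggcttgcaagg
The capitals upstream of *Col6a2* are the C/EBP letters TTGCNNAA read on the other strand. This pattern stood in the windows of 2 of the 18 members with a window (*Col4a6* and *Col6a2*) and in 10.8% of all 32851 windows.

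*Col6a1* and *Col6a2* fell in sgCebpa/b/d and were not called in sgLkb1. *Col6a1* had 6.71 to 22.8 TPM in sgInert (median 14.3), 1.62 to 4.18 TPM in sgCebpa/b/d (median 2.64) and 9.14, 10.3, 12.01, 12.5 and 15.02 TPM in sgLkb1. No sgCebpa/b/d library reached the lowest library of either other group, which for genes lower than in sgInert held for 2.09% of all genes. For genes lower than in sgLkb1 this share was not counted.

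Its log2 fold change was -2.39 ± 0.26 against sgInert (5.26-fold lower, adjusted p = 2.00e-06) and -1.93 ± 0.27 against sgLkb1 (adjusted p = 8.65e-05). *Col6a2* had 1.94 to 13.8 TPM in sgInert (median 5.21), 0.46 to 2.74 TPM in sgCebpa/b/d (median 1.19) and 4.24, 4.41, 6.03, 6.39 and 7.09 TPM in sgLkb1. It fell by 2.22 ± 0.41 on the log2 scale against sgInert (adjusted p = 0.000977) and by 1.87 ± 0.43 against sgLkb1 (adjusted p = 0.0105), with an overlap of its sgCebpa/b/d and sgInert libraries.

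In sgLkb1 the log2 fold changes against sgInert were -0.47 ± 0.26 for *Col6a1* and -0.35 ± 0.42 for *Col6a2*, neither of which passed (adjusted p = 0.366 and 0.732). The call of *Col6a1* held in all 19 fits that left out 1 library and all 12 other alternatives of both comparisons. The MT-numbered sgInert libraries were themselves lower than the ZR-numbered ones, with 9.35, 7.60 and 6.71 TPM of *Col6a1* against 21.8, 16.5, 14.3 and 22.8 TPM (log2 fold change -1.21 ± 0.25, adjusted p = 0.0139). Among MT-numbered libraries *Col6a1* was still called lower in sgCebpa/b/d (log2 fold change -1.58, adjusted p = 0.00081) and *Col6a2* was not (log2 fold change -1.24, adjusted p = 0.0955). Without the unnumbered libraries, the call of *Col6a2* against sgLkb1 was lost.

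*Col6a3* did not follow. It had 0.11 to 6.89 TPM in sgInert (median 0.56), 1.43 to 5.33 TPM in sgCebpa/b/d (median 2.46) and 1.65, 5.25, 1.33, 2.98 and 6.51 TPM in sgLkb1. Its log2 fold changes of 1.255 ± 0.52 and 1.52 ± 0.55 did not pass (adjusted p = 0.140 and 0.119). As a share of type VI transcripts, *Col6a3* made up 1.08% to 15.9% in sgInert (median 2.04%), 26.2% to 66.1% in sgCebpa/b/d (median 42.3%) and 5.94% to 24.9% in sgLkb1 (median 15.2%). sgInert replicate 6 had the most *Col6a3* of its group, with 110 counts against 5 to 34 in the other 6 libraries.

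Fibril-associated collagens. The products of *Col12a1*, *Col14a1* and *Col16a1* bind the surface of fibrils. *Col12a1* had 3.14 to 15.3 TPM in sgInert (median 5.50), 2.01 to 3.63 TPM in sgCebpa/b/d (median 2.74) and 10.3, 8.83, 6.19, 4.53 and 10.3 TPM in sgLkb1. Every sgCebpa/b/d library lay below every library of sgLkb1, and the range overlapped with that of sgInert. The share of all genes with such a gap to sgLkb1 was not counted.

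The log2 fold change of *Col12a1* in sgCebpa/b/d was -1.57 ± 0.31 against sgInert (adjusted p = 0.0019) and -1.46 ± 0.33 against sgLkb1 (adjusted p = 0.00932), and in sgLkb1 against sgInert it was -0.10 ± 0.33. It was called lower in MT-numbered than in ZR-numbered sgInert (log2 fold change -1.38 ± 0.35, adjusted p = 0.04). Among MT-numbered libraries its value against sgInert was -0.60 (adjusted p = 0.204), which was not called, while that against sgLkb1 was -1.52 (adjusted p = 0.0022). The call against sgLkb1 was lost with the unnumbered libraries left out.

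*Col14a1* went the other way and was sparse, with 1 to 20 counts in sgInert (median 6), 6 to 330 counts in sgCebpa/b/d (median 64) and 24, 3, 31, 17 and 41 counts in sgLkb1. The 330 counts were in 1 MT-numbered library, replicate 2. The log2 fold change in sgCebpa/b/d was 2.93 ± 0.60 (adjusted p = 0.00241), it stayed called in all 19 fits that left out 1 library with values of 2.45 to 3.25, and in the comparison with sgLkb1 it did not pass (2.07 ± 0.63, adjusted p = 0.0564). *Col16a1*, with 1 to 30 counts per library, was not called in any comparison.

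Membrane-spanning and anchoring collagens. *Col23a1*, which encodes a collagen anchored in the plasma membrane, had 3.19 to 7.15 TPM in sgInert (median 4.13), 6.26 to 12.2 TPM in sgCebpa/b/d (median 9.20) and 3.00, 4.03, 1.49, 4.10 and 5.42 TPM in sgLkb1. All sgCebpa/b/d libraries lay above all sgLkb1 libraries, and the share of all genes that did so was not counted. The log2 fold change was 1.52 ± 0.27 against sgLkb1 (adjusted p = 0.00128) and 1.01 ± 0.24 against sgInert (adjusted p = 0.00853). The first call was made in all 12 alternatives and in all 19 fits that left out 1 library, whereas the second stood at the minimum fold and was lost in 7 of those 19 fits, with log2 fold changes down to 0.93, and in 4 of the 12 alternatives, down to 0.67 without the unnumbered libraries.

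*Col7a1*, the anchoring fibril that ties epithelium to the matrix beneath it, was called in sgLkb1 alone. It had 1 to 7 counts in sgInert, 4 to 21 in sgCebpa/b/d and 24, 22, 41, 21 and 18 in sgLkb1. In log2 CPM, too, every sgLkb1 library lay above every sgInert library, which held for 2.15% of all genes. The log2 fold changes were 1.90 ± 0.47 in sgLkb1 (adjusted p = 0.0192) and 1.14 ± 0.45 in sgCebpa/b/d (adjusted p = 0.122). The difference between the targeted groups did not pass (-0.76 ± 0.45, adjusted p = 0.401), and the call in sgLkb1 was lost in 7 of 12 alternatives and without sgLkb1 replicate 4.

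**Figure D5:**
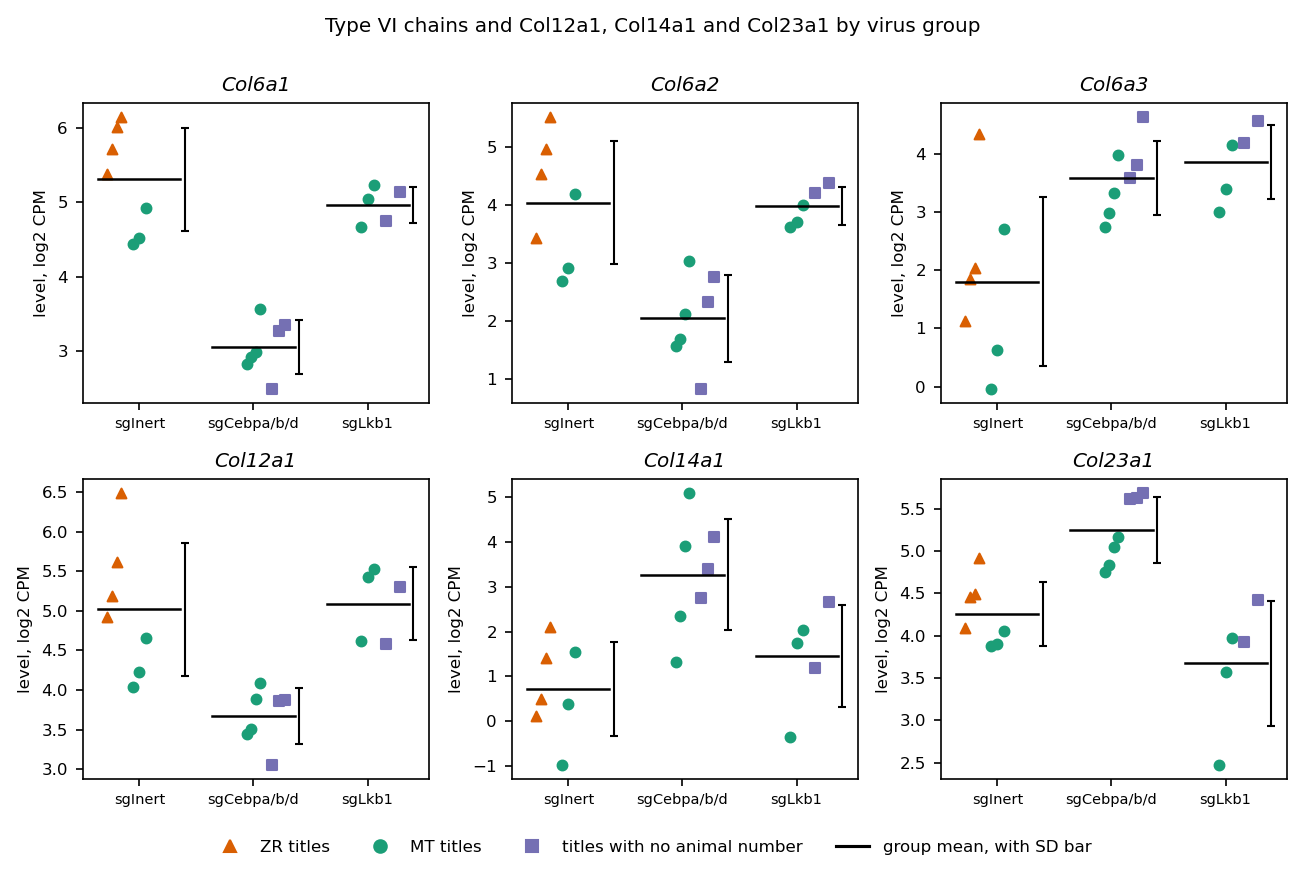
Level of the 3 type VI genes and of *Col12a1*, *Col14a1* and *Col23a1* (log2 CPM, vertical axis) in each library by virus group, with symbols for the title series, lines at the group mean and bars of 1 SD. All sgCebpa/b/d libraries lie below all others for *Col6a1*, the sgCebpa/b/d libraries of *Col6a3* do not, and the sgCebpa/b/d libraries of *Col23a1* lie above those of sgLkb1.

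Multiplexins and short-chain collagens. *Col18a1*, the basement membrane collagen from which endostatin is cut, differed within sgCebpa/b/d. It had 11.2, 9.41, 11.4 and 11.7 TPM in the MT-numbered libraries and 3.02, 4.30 and 3.60 TPM in the unnumbered ones. The log2 fold change between them was -1.38 ± 0.27 (adjusted p = 0.00384). It was the 1 collagen gene called in this comparison, in which 1.39% of all genes were called lower and 2.85% higher. The MT-numbered replicates 1, 3 and 4 came from the same animal, and libraries of an animal were not summed in this comparison.

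In sgLkb1 the same contrast gave 0.04 ± 0.31 for *Col18a1*, where 4.38, 8.48 and 6.50 TPM in MT-numbered libraries stood against 5.56 and 6.45 TPM, and 0 collagen genes were called (0.136% of all genes higher and 0.0215% lower; with the DESeq2 test, 0 as well). The interaction of title series and virus did not pass for *Col18a1* (-1.41 ± 0.41, adjusted p = 0.213) or any other collagen gene. Against sgInert, *Col18a1* was not called over all libraries (0.72 ± 0.28, adjusted p = 0.11), and among MT-numbered libraries it was called higher in sgCebpa/b/d (log2 fold change 1.47, adjusted p = 0.00327). The 8 endothelial markers moved with this split in the opposite direction, with 22.9 to 44.5 TPM in the MT-numbered and 119 to 163 TPM in the unnumbered sgCebpa/b/d libraries. Of 6 immune markers tested, 4 were called higher and *Lyz2* lower in the unnumbered libraries, and 2 of 10 alveolar type II markers were called lower, their sum being 32653 to 48188 TPM against 55266 to 59729 TPM. The part of these cells in the split was not tested.

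*Col8a1*, a short-chain collagen of basement membranes and vessel walls, had 1.64 to 7.66 TPM in sgInert and 5.05 to 9.09 TPM in sgCebpa/b/d and did not pass there (0.91 ± 0.30, adjusted p = 0.053). It was called lower in MT-numbered sgInert, with 2.65, 1.85 and 1.64 TPM against 3.73, 7.66, 5.74 and 4.60 TPM (log2 fold change -1.36 ± 0.33, adjusted p = 0.0341). *Col15a1* (0 to 76 counts) and *Col10a1* (1 to 25 counts) were not called in any of the 6 comparisons. The annotation of *Col10a1* shares exon bases with *Nt5dc1* on the opposite strand, and whether counting used strand is not stated.

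Comparing the targeted groups directly, 2 collagen genes had the higher level in sgCebpa/b/d (*Col4a4* and *Col23a1*) and 3 the lower level (*Col6a1*, *Col6a2* and *Col12a1*), against 1.16% and 1.64% of all genes. By the adjusted p alone there were 3 and 3, against 2.83% and 3.12%. The median log2 fold change of the 23 genes was -0.06, and that of all genes was 0.03. None of the 5 fibrillar genes passed between the targeted groups, with log2 fold changes of -0.39 to 0.19 and standard errors of 0.48 to 0.58, so that differences of about 1 on the log2 scale could not be told from 0.

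Of 28 genes for collagen modification, folding, secretion and trimming, 20 could be tested. In sgCebpa/b/d 0 of them were called, and in sgLkb1 *Pcolce*, whose product speeds the removal of the C-terminal propeptide of fibrillar procollagen, was called higher (1.01 ± 0.22, adjusted p = 0.0066), 1 of 20 against 1.87% of all genes. The median log2 fold change over the list was 0.09 in sgCebpa/b/d and -0.05 in sgLkb1. *P4hb* and *Ppib*, which act in prolyl hydroxylation and folding, passed the adjusted p in sgCebpa/b/d with log2 fold changes of -0.37 ± 0.10 and -0.45 ± 0.11, under the minimum fold.

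Of 11 collagen receptor genes, 7 could be tested. The tyrosine kinase receptor of fibrillar collagen *Ddr2* (1.83 ± 0.42, adjusted p = 0.0108) and the endocytic receptor *Mrc2* (1.196 ± 0.24, adjusted p = 0.00374) were called higher in sgLkb1, 2 of 7 against 1.87% of all genes, and 0 were called in sgCebpa/b/d. *Itga2*, a collagen-binding integrin subunit, was called in the comparison of the targeted groups, with the lower level in sgCebpa/b/d (-1.67 ± 0.35, adjusted p = 0.00485), 1 of 7 against 1.64% of all genes.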

How the data were processed

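Per the labels and the study's methods, paired reads were aligned to mm10 with STAR 2.6.1d and quantified with RSEM 1.2.30 by the authors. The deposited expected counts are RSEM estimates per gene without normalization, and TPM, also deposited, is RSEM's level per gene length and library. The authors' deposited tables of comparisons (fold changes and p-values) were not used. Expected counts were rounded. edgeR 4.0.16 (R 4.3.3) was run with TMM normalization and filterByExpr (minimum count 10, minimum total 15), which left 13986 genes, and quasi-likelihood tests in 1 model of 19 libraries without a covariate gave the comparisons of viruses. Title series were compared in a model of 6 means, one per virus and title series. P-values were adjusted by Benjamini-Hochberg over all genes, with calls at an adjusted p under 0.05 and a log2 fold change past 1 in either direction. Values after ± are standard errors for fold changes and SD for levels. Log2 CPM used a prior count of 2, and figures were drawn with matplotlib 3.10.9.

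Collagen genes and gene lists were chosen with earlier results of these data known. Collagen genes called in any comparison were described in full and the others by range. The edgeR, DESeq2 and limma tests were tried on simulated counts for sgCebpa/b/d against sgInert, limma on scaled counts in place of TPM. Models with title series, covariates, gene lengths or summed animals were not tried in this way. Alternatives covered normalization, the tool (DESeq2 1.42.0, limma 3.58.1 on log2(TPM + 1) and log2(TPM + 0.1)), the filter, gene lengths, sex, title series, animals and libraries left out. Replicate pairs differed by a chi-square per gene of 7.34 to 76.8, so none was taken for a library deposited again. The fits counted each library as its own unit, also where libraries share an animal number. Labels do not say whether the unnumbered libraries are from separate animals. P-values therefore measure the spread between these libraries and not between animals, and reads of amplified libraries give counting error only. Libraries of each animal were summed in an alternative for the comparisons of viruses, and not for those of title series. Coordinates are from GENCODE M21 (GRCm38). One allele of the mice is not reported here.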

Additional observations from a re-analysis of the deposited data

Results flagged for a closer look

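In 69 combinations of a collagen gene and a group, 2 libraries stood apart from the rest of their group, where chance marks about 1 group in 20. *Col4a4* was highest in sgInert replicate 3, at 7.23 log2 CPM against 6.599 to 6.84 in the other sgInert libraries. *Col18a1* was lowest in sgInert replicate 7, at 3.11 log2 CPM (34 counts) against 4.01 to 4.69 (83 to 127 counts). The log2 fold change of *Col4a4* in sgCebpa/b/d stayed between 1.14 and 1.31 in the fits that left out 1 library.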

How the results depend on the processing

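The reported calls of collagen genes were 7 in sgCebpa/b/d and 2 in sgLkb1 against sgInert, 5 between the targeted groups, 7 between MT-numbered and ZR-numbered sgInert libraries, and 1 and 0 between unnumbered and MT-numbered libraries of sgCebpa/b/d and sgLkb1. DESeq2 size factors and the DESeq2 test in all 6 comparisons, and limma on log2(TPM + 1) or log2(TPM + 0.1) in the 3 of viruses, gave counts within 1.5 times of these. With title series as a covariate there were 12 calls in sgCebpa/b/d and 5 in sgLkb1, and among MT-numbered libraries 11 and 6. In sgLkb1 there were 0 calls with gene lengths as offsets, 6 with sex as a covariate, 1 with the unnumbered libraries left out, 1 with the libraries of each animal summed (*Col4a6*, with *Col3a1* and *Col7a1* both lost), and 4 by the adjusted p alone. Between the targeted groups there were 3 calls without the unnumbered libraries, with *Col4a4*, *Col6a2* and *Col12a1* lost and *Col18a1* gained. Without the filter on low counts there were 11 calls between MT-numbered and ZR-numbered sgInert libraries and 2 between the series of sgCebpa/b/d.

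Leaving out 1 library gave 5 to 12 calls for sgCebpa/b/d against sgInert and 0 to 8 for sgLkb1, 4 to 6 between the targeted groups, 2 to 7 between the sgInert series, 1 to 2 between the sgCebpa/b/d series and 0 to 1 between the sgLkb1 series. The 12 and the 8 came without sgInert replicate 6. In sgLkb1, 0 calls were left without sgLkb1 replicate 4, and 1 without sgInert replicate 1, 3, 5 or 7, sgCebpa/b/d replicate 6, or sgLkb1 replicate 1, 2 or 5. The 2 between the sgInert series came without replicate 5 or 7, the 2 in sgCebpa/b/d without its replicate 6 (adding *Col15a1*), and the 1 in sgLkb1 without its replicate 4 (*Col4a4*). Of the values, under all alternatives, of collagen genes that passed the adjusted p as reported, 622 kept their direction and side of the threshold, 77 lost their call, 1 gained one and 0 reversed, whereas genes that had not passed gained calls too, as in the counts above; for most of these losses the cause was not tested.

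Replicate numbers did not pair the libraries: correlations of deviations from the group means between same-numbered libraries of different groups were -0.1942 to 0.2707, and 6 of 34 comparisons placed a library closest to its own number. With the replicate number as a block, calls were 7, 5 and 5 in the 3 comparisons of viruses, the second against 2 without it. Low counts limit *Col4a6*, *Col5a1*, *Col7a1*, *Col10a1*, *Col14a1*, *Col15a1* and *Col16a1* most.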
